A study of Mus musculus with 10 samples.

Results

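The genes described here are 72 regulators of transcription and their partners, of 18725 genes in the deposited table. They were matched by symbol, as the members of the SIX-family, DLX, MSX, PAX, IRX, LHX, TBX, MEIS, PBX, PITX, HMX, EMX, OTX, PRRX, GATA and EYA families with the numbers the rule lists. The rule was set with earlier results of these data known. The rule matched 74 symbols, and Tbx18 and Hmx2 were left out by it. RNA was sequenced from 10 libraries of mouse cochlear tissue, namely outer sulcus and the spiral ligament under it, from C57BL/6J animals at postnatal day 10. In 5 libraries the animals were hypothyroid. Their mothers drank water with methimazole at 0.05%, sodium perchlorate monohydrate at 1.0% and sucrose at 5.0%, beginning at embryonic day 17 and going on through lactation to postnatal day 10. In the other 5 libraries the animals were euthyroid, and their mothers had vehicle. No allele or transgene is named for either group. The labels do not say whether each library came from its own animal, so p-values measure only the spread among these libraries, which may be technical. The mother and litter of each library were not given, and a litter effect cannot be told apart from the treatment.

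Homeobox proteins bind short DNA elements rich in adenine and thymine, and their expression in patches sets the regional identity of embryonic tissue, the inner ear included. T-box and GATA proteins are other families of DNA-binding factors, and EYA proteins are phosphatases that bind DNA only through a SIX-family partner. Among them, Eya1, Pax2, Gata3 and Tbx1 are needed for the otic vesicle to form a cochlea, and human mutations in several of these genes cause deafness. MEIS and PBX proteins are cofactors that dimerise with one another and with HOX proteins.

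The libraries held 19298145 to 20063961 estimated counts each. An extraction text in the labels speaks of cartilage from the femoral head at postnatal day 22, whereas all other labels name the cochlea at postnatal day 10. Otor, a gene of the cochlea, had 5479 CPM in euthyroid and 6060 CPM in hypothyroid libraries (means, n = 5 each). CPM is the count per library total, after scaling for library composition. The hindlimb gene Tbx4 had 36 counts in all euthyroid and 134 in all hypothyroid libraries, and the forelimb gene Tbx5 had 5 and 1. Hoxa13 and Hoxd11, genes of the distal limb, had 2 and 0 counts in the euthyroid and 0 and 1 in the hypothyroid libraries. Other HOX genes were detected. Hoxd8 had 7 to 11 counts per euthyroid and 24 to 59 per hypothyroid library, and Hoxa2 had 52 to 113 and 72 to 104. The sum over 14 HOX genes was 3.715 to 7.218 CPM in euthyroid and 5.256 to 7.997 CPM in hypothyroid libraries. These limb and HOX genes do not settle the tissue. Cartilage markers were high, with a sum over 7 chondrocyte genes of 32750 to 38080 CPM in euthyroid and 13160 to 14180 CPM in hypothyroid libraries. The labels' tissue was kept on the level of Otor. Euthyroid library 5 and hypothyroid libraries 2 and 5 had low levels of Y-linked genes. Hypothyroid library 4 stood apart in markers of 2 cell types of the stria vascularis, the neighbouring tissue of the lateral wall. Its summed level of 5 marginal cell markers was 563 CPM, against 235 to 336 CPM in the other hypothyroid libraries, and that of 7 melanocyte markers was 1694 CPM, against 892 to 1303 CPM.

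Of the 72 genes, 43 had enough counts for a test and 29 did not. Among the 43, 22 were higher and 9 lower in hypothyroid libraries and 12 did not pass, so that 72.1% passed at an edgeR adjusted p under 0.05, where 71.8% of all 14862 genes tested did. Higher genes made up 51.2% of the 43 and 37.7% of all genes, and lower genes 20.9% and 34.1%. A change of at least 2-fold was found for 7 higher and 3 lower members, 23.3% of those tested against 17.2% of all genes (9.25% higher and 7.91% lower). Lhx6, Tbx4, Otx2 and Dlx3 among them passed the filter mainly through the group where they were high, which inflates the count. A stricter filter, at least 2 CPM in 5 libraries, drops them and left 5 higher and 2 lower members of that size. In 18 members every hypothyroid library lay above every euthyroid one, and in 6 members below, together 55.8% against 57.9% of all genes (29.4% above and 28.5% below). The shares that passed, and that did not overlap, were thus close to those of all genes.

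The median log2 fold change of the tested members, hypothyroid minus euthyroid, was 0.35, and that of all genes 0.04. Values ran from -3.22 for Dlx3 to 2.58 for Lhx6. The split of higher and lower calls moved with the scaling: 71.0% of called members were higher with TMM factors (52.5% of all called genes), 85.3% with library sizes alone (74.7%) and 80.0% on TPM values (71.3%). Library sizes alone moved the median of all genes to 0.30 and that of the members to 0.62. A count scaling shifts both medians alike, so the gap between them, 0.32, is no test of stability. The gap was 0.22 and 0.19 on TPM with the 2 pseudocounts and 0.04 when no filter was applied. In these bulk samples, fewer cells of a type and less RNA per cell cannot be told apart.

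**Figure D1:**
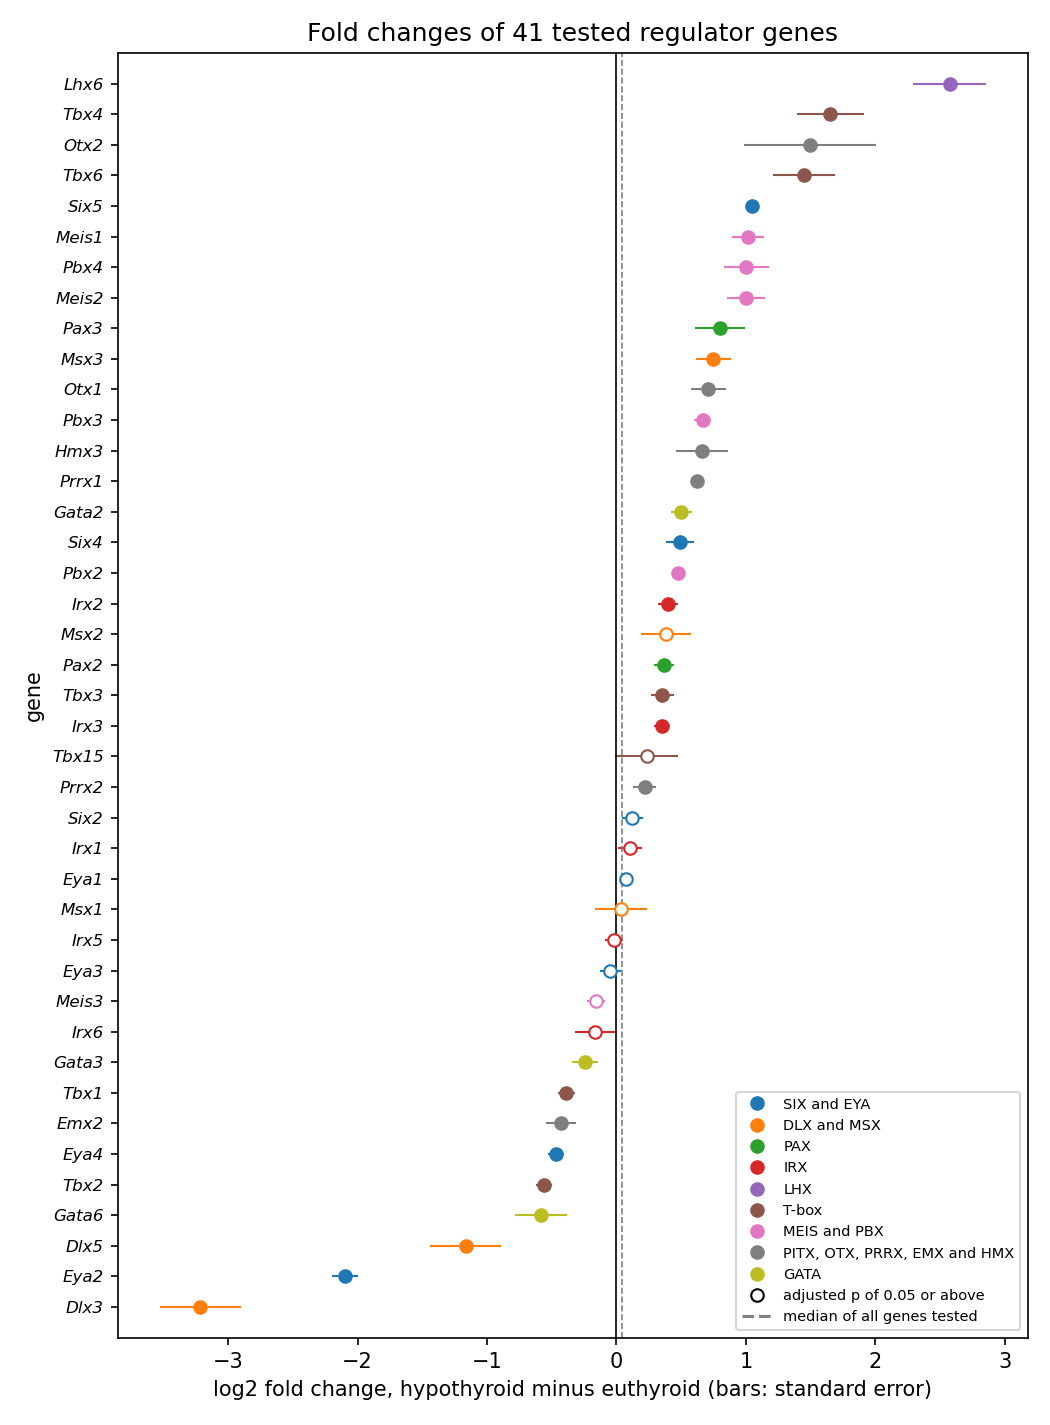
Log2 fold changes (x axis, hypothyroid minus euthyroid, bars are standard errors) of 41 tested genes (y axis), coloured by family, with open circles for the 10 of them that did not pass. The values run from -3.22 (Dlx3) to 2.58 (Lhx6), more genes lie right of 0 than left of it, and the dashed line is the median of all genes at 0.04.

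Per length, in the authors' TPM (a level adjusted for gene length), the most abundant members in euthyroid tissue were Irx3 at 200.4, Irx5 at 130.8, Tbx1 at 113.6 and Eya1 at 107.3 TPM. In hypothyroid tissue Irx3 stayed first at 299.4 TPM. Msx3 moved from the eighth place at 78.4 TPM to the second at 153.8 TPM, and Six5 from place 17 at 32.3 TPM to place 9 at 78.2 TPM. Eya2 went from place 11 at 60.7 TPM to place 22 at 16.8 TPM. The summed level of all 72 genes was 1505 to 1674 TPM in euthyroid and 1892 to 2083 TPM in hypothyroid libraries. The T-box genes summed to 204.1 to 221.0 TPM in euthyroid and 174.5 to 196.7 TPM in hypothyroid libraries. No test was made of these sums, and on TPM the median of all genes was itself higher by 0.25. Among euthyroid libraries Irx3 varied least, with a coefficient of variation of 1.95%, and Otx2 most, with 82.5%. The median over the tested members was 11.7% in euthyroid and 10.3% in hypothyroid libraries.

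**Figure D2:**
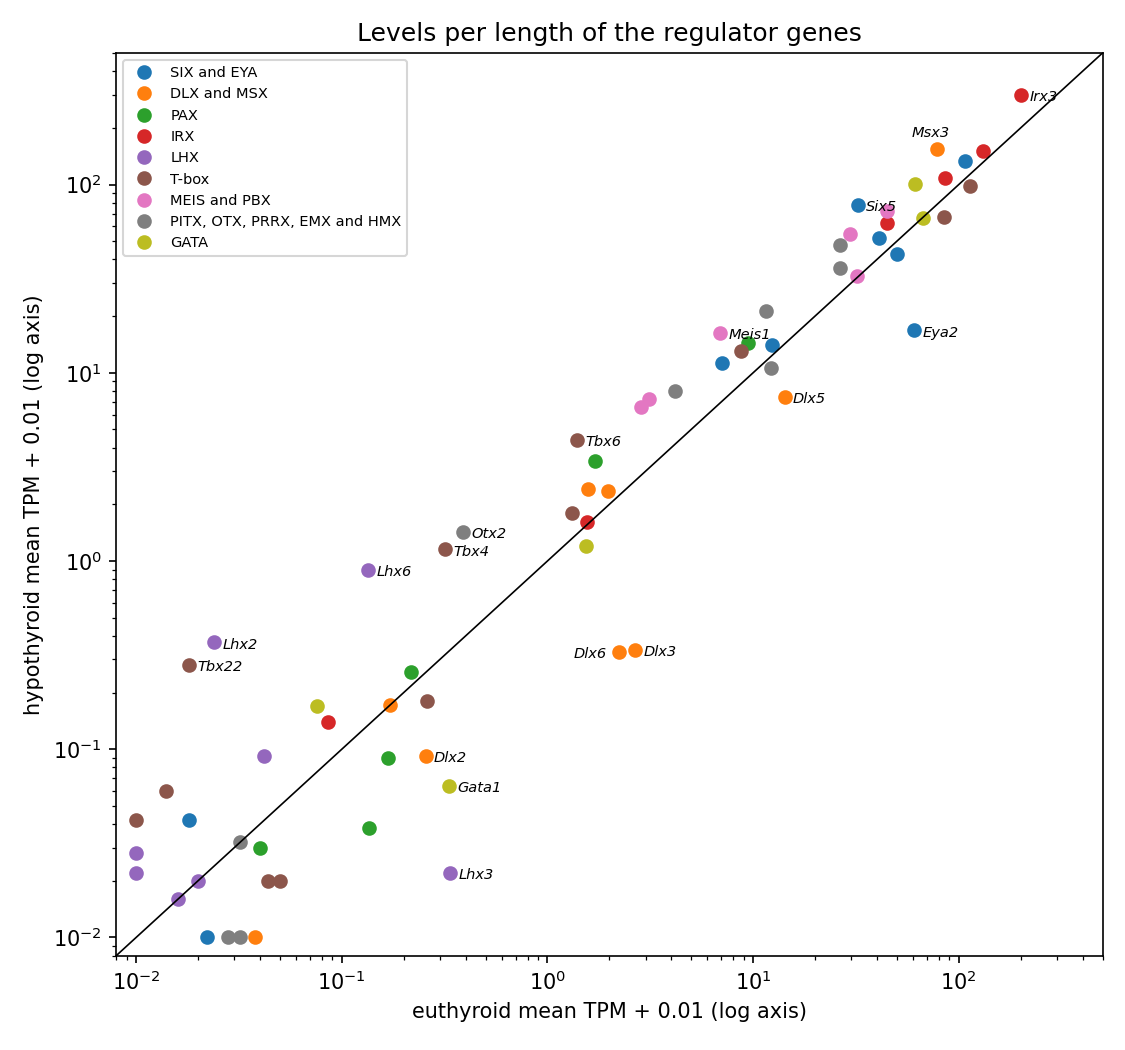
Mean authors' TPM of 70 of the 72 genes in euthyroid (x axis) and hypothyroid (y axis) libraries, both on log axes with 0.01 added, 1 point a gene, coloured by family, with the line of equal levels. Irx3 is at the top right, Eya2, Dlx5, Dlx3, Dlx6 and Lhx3 lie well below the line, and Lhx6, Tbx4, Otx2, Tbx6, Lhx2 and Tbx22 well above it.

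Among the SIX-family and EYA genes, 2 were higher, 2 lower and 4 of the 8 tested did not pass, with a median log2 fold change of 0.01. The share that passed was 50.0%, against 71.8% of all genes. Eya2, a coactivator for SIX-family proteins on chr2:165595028-165771727, fell. It was at 59.5, 53.0, 54.2, 69.9 and 64.2 CPM in the euthyroid libraries and at 12.9, 11.5, 16.5, 15.1 and 14.1 CPM in the hypothyroid ones. No hypothyroid library came near the lowest euthyroid one. The change was -2.10 ± 0.10 (log2, SE; edgeR adjusted p = 1.76e-10). Markers of cell types in this tissue were lower too. Of 7 root cell and outer sulcus markers 6 were lower, where 34.1% of all genes were. Their sum was 8014 to 8755 CPM in euthyroid and 3223 to 3904 CPM in hypothyroid libraries. Of 9 fibrocyte markers 7 were lower and Tgfbi was higher, and the sum was 20460 to 24360 and 10850 to 13520 CPM. Supporting cell markers summed to 1768 to 2024 and 847 to 1384 CPM. Most of that sum was Gjb2, at 1615 to 1931 and 823 to 1354 CPM. Since Gjb2 is on the fibrocyte list as well, the 2 sums are not independent. The part of these cell types in the lower members was not tested. Eya4, mutated in a progressive human deafness, had 112, 112, 96.0, 122 and 114 CPM in euthyroid and 80.7, 83.2, 78.2, 72.4 and 86.8 CPM in hypothyroid libraries. The 2 groups did not overlap, and the change was -0.47 ± 0.06 (log2, SE; edgeR adjusted p = 7.88e-06).

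Six5, on chr7:19094544-19098549 next to the myotonic dystrophy kinase gene, rose. Its euthyroid values were 40.7, 42.5, 41.2, 39.9 and 37.9 CPM and its hypothyroid values 86.9, 80.5, 85.2, 78.7 and 86.6 CPM. Both groups were tight and lay far apart, with a change of 1.05 ± 0.05 (log2, SE; edgeR adjusted p = 5.36e-11). Eya1, the most abundant of this family and needed for the otic vesicle, was at 201 ± 5.81 CPM in euthyroid and 212 ± 10.4 CPM in hypothyroid libraries (SD, n = 5 each), with overlapping groups and a change of 0.08 (edgeR adjusted p = 0.136). That call depended on the scaling, since with library sizes alone Eya1 was higher by 0.34 (adjusted p = 6.39e-06). Six4 rose by 0.49, and Six2 and Eya3 did not pass, at 0.12 and -0.05. Both passed as higher with library sizes alone (0.39 and 0.22, edgeR adjusted p = 3.13e-04 and 0.0314), and Six2 also with upper quartile factors (0.23, adjusted p = 0.0179) and on TPM (0.35, limma adjusted p = 6.48e-04). Six3 and Six6 had at most 4 counts in either group.

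Of the 5 tested DLX and MSX genes, Dlx3 and Dlx5 were lower, Msx3 was higher, and Msx1 and Msx2 did not pass. That made 60.0% called, against 71.8% of all genes, though Dlx3 passed the filter mainly through the euthyroid group. Dlx3, a regulator of bone, tooth and hair on chr11:95120117-95125296, had 2.16, 1.99, 3.67, 2.48 and 4.88 CPM in euthyroid libraries. In hypothyroid libraries it had 0.234, 0.285, 0.482, 0.323 and 0.283 CPM. Every hypothyroid value was far below the lowest euthyroid one, and the log2 change of -3.22 ± 0.31 (SE; edgeR adjusted p = 2.5e-07) was the most negative of the 43. Dlx5, which acts in the otic vesicle and in osteoblasts and lies on chr6:6877801-6882068, had 8.21, 7.92, 7.39, 8.96 and 9.76 CPM in euthyroid libraries. The hypothyroid values were 6.27, 1.85, 2.07, 4.80 and 3.77 CPM, the widest relative spread of any tested member in that group (49.6%). The groups did not overlap, and the change was -1.17 ± 0.28 (log2, SE; edgeR adjusted p = 0.00236), or -1.43 without hypothyroid library 1.

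Dlx6, 9.8 kb from Dlx5, was below the filter. It had 10, 25, 11, 19 and 27 counts in euthyroid and 1, 1, 4, 1 and 6 counts in hypothyroid libraries. These groups did not overlap either, and the ratio of hypothyroid to euthyroid was 0.121 with an exact 95% interval of 0.0619 to 0.217, which covers counting error only. Dlx2 had 24 and 8 counts, Dlx1 had 21 and 19 counts, and Dlx4 had 2 and 0 counts.

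Markers of osteoblasts, which make bone and express Dlx3, Dlx5 and Dlx6, moved with these genes. Of 8 such markers 7 were lower, where 34.1% of all genes were. Their sum was 1013 to 1558 CPM in euthyroid and 34.4 to 61.8 CPM in hypothyroid libraries. Bglap2 was at 0 in all hypothyroid libraries, whereas Runx2 did not pass, at -0.08 (edgeR adjusted p = 0.776). Library by library the picture was mixed. The marker sums in hypothyroid libraries 1 to 5 were 61.8, 34.4, 54.45, 37.9 and 50.7 CPM. Dlx5 had 6.27, 1.85, 2.07, 4.80 and 3.77 CPM there. The highest and the lowest value fell in the same libraries, and those between did not keep the same order. Runx2, which did not pass, was the largest part of the sum in library 1, so the match of the highest value leaned on it. Sp7 (12.5 CPM) and Runx2 (23.3 CPM) were highest in library 1, but Bglap and Sost were at 0 there. Dmp1 was highest in library 3, and Ibsp was almost level in libraries 1 and 3 (16.5 and 16.6 CPM). The part of osteoblasts in the result was not tested.

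Msx3, known from the dorsal neural tube and on chr7:140046157-140049088, had 71.2, 83.0, 85.7, 80.1 and 70.6 CPM in euthyroid libraries. Its hypothyroid values were 95.7, 164, 152, 121 and 124 CPM. All were above the euthyroid values but spread widely, and the change was 0.75 ± 0.13 (log2, SE; edgeR adjusted p = 4.37e-04). Its relatives Msx1 and Msx2, which act in the bones of the skull, were low, at 1.63 and 1.46 CPM in euthyroid and 1.67 and 1.92 CPM in hypothyroid libraries. The change of Msx2, 0.38, did not pass with TMM factors but depended on the scaling. It passed with library sizes alone (0.65, edgeR adjusted p = 0.00676) and upper quartile factors (0.49, edgeR adjusted p = 0.031). On TPM with pseudocount 0.1 it passed as well (0.59, limma adjusted p = 0.00773). Msx2 also passed without euthyroid library 1 or hypothyroid library 5 (edgeR adjusted p = 0.0355 and 0.046).

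**Figure D3:**
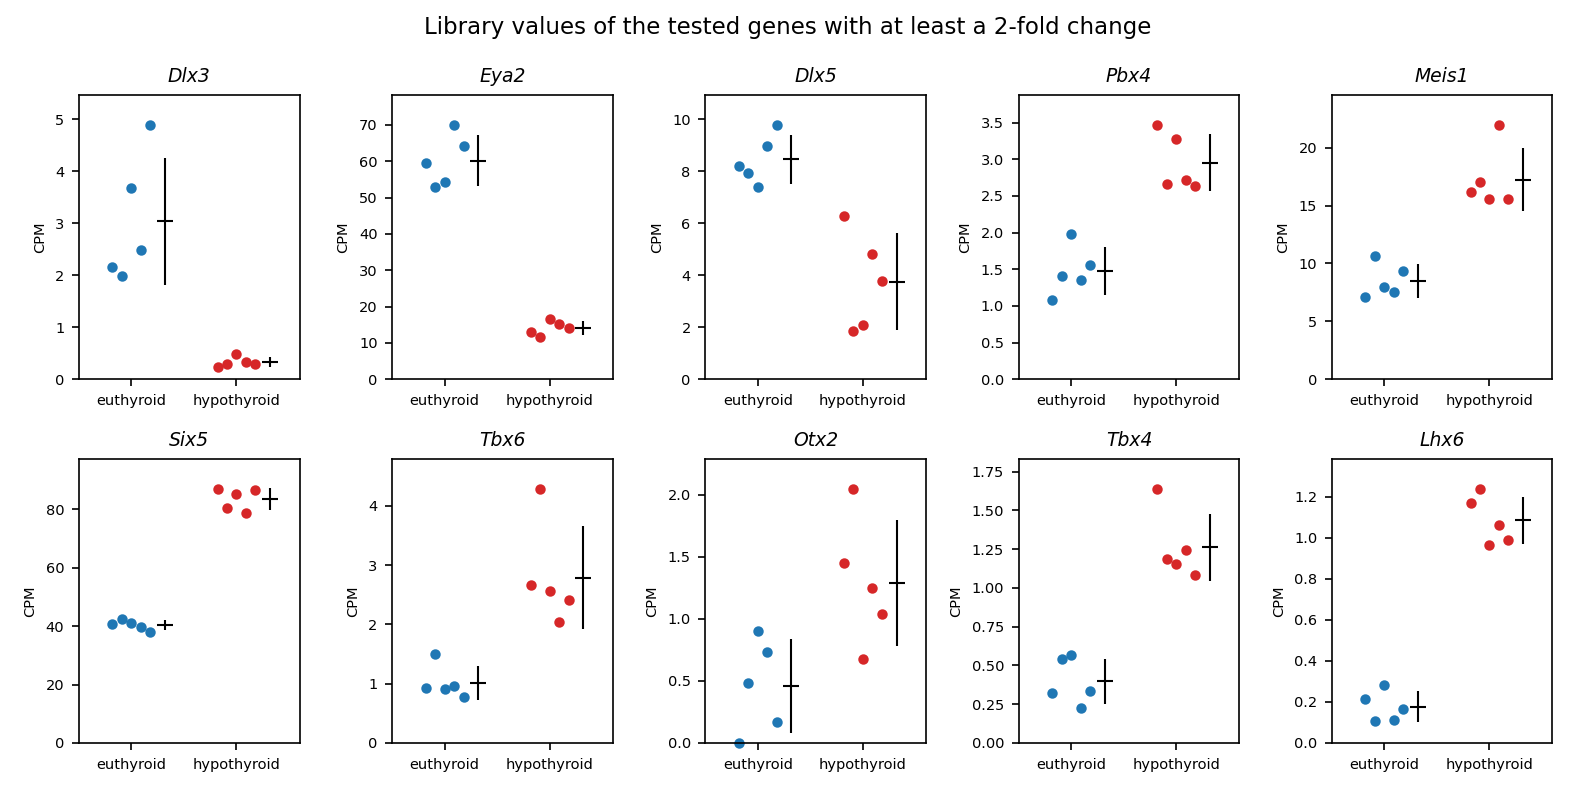
CPM (y axis, from 0) of the 10 tested genes with a change of at least 2-fold, in 5 euthyroid (blue) and 5 hypothyroid (red) libraries, with the mean and SD beside the points. The groups overlap for Otx2 and for none of the other 9 genes shown.

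Of the IRX genes, which pattern neural and sensory fields and lie in 2 clusters, 2 of 5 tested were higher, none was lower and 3 did not pass. This was 40.0% called, against 71.8% of all genes. Irx3, the most abundant, had 208, 210, 200, 203 and 203 CPM in euthyroid and 267, 286, 278, 218 and 261 CPM in hypothyroid libraries. Hypothyroid library 4 was the lowest of its group but still above all euthyroid libraries, and the change was 0.35 ± 0.06 (log2, SE; edgeR adjusted p = 9.99e-05). Irx5, 556 kb away in the same cluster on chromosome 8, was at 137 ± 6.59 and 135 ± 15.2 CPM (SD, n = 5 each) and did not pass under TMM, with a change of -0.02. With library sizes alone its change was 0.25 and passed (edgeR adjusted p = 0.00268), as did 0.20 on TPM (limma adjusted p = 0.0138). In the cluster on chromosome 13, Irx2 was higher by 0.40 and Irx1, 661 kb from it, did not pass at 0.10. That contrast depended on the scaling, since Irx1 passed with library sizes alone (0.37, edgeR adjusted p = 0.00666) and on TPM (0.35, limma adjusted p = 0.012). Irx6 was low, at 2.28 and 2.03 CPM, and Irx4 had 7 and 12 counts. An antisense gene, Irx3os, overlaps Irx3, and the libraries' strand was not stated, so reads of the 2 cannot be told apart. The same holds for 16 of the 43 tested members that overlap an opposite-strand gene in the annotation, among them Eya1, Eya2, Meis1, Pbx3, Pax2, Prrx1, Tbx3, Emx2, Gata3, Gata6 and Hmx3, which overlaps Fgfr2.

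The T-box genes moved both ways, with 3 higher, 2 lower and 1 of 6 tested not passing (83.3% called, against 71.8% of all genes). That share counts Tbx4, which passed the filter mainly through the hypothyroid group. Tbx2, which acts in the differentiation of cochlear hair cells, had 136, 132, 129, 131 and 131 CPM in euthyroid libraries, a narrow range. It had 83.9, 104, 88.1, 94.0 and 77.3 CPM in hypothyroid libraries. All hypothyroid values were lower, and the change was -0.56 ± 0.06 (log2, SE; edgeR adjusted p = 1.76e-06). Tbx1, the otic gene of DiGeorge syndrome, was at 97.0 ± 9.18 and 74.0 ± 4.94 CPM (SD, n = 5 each). Its groups did not overlap, and the change of -0.39 ± 0.07 (SE; edgeR adjusted p = 7.68e-05) shrank to -0.12 and did not pass with library sizes alone (adjusted p = 0.088). Tbx3 rose by 0.35 ± 0.09 (SE; edgeR adjusted p = 0.0018), from 18.01 ± 1.83 to 23.0 ± 2.46 CPM (SD, n = 5 each), with overlapping groups.

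Tbx4 and Tbx6, which act in the hindlimb and in paraxial mesoderm, rose from low levels. Tbx4 had 0.324, 0.539, 0.564, 0.225 and 0.333 CPM in euthyroid and 1.64, 1.19, 1.16, 1.25 and 1.08 CPM in hypothyroid libraries. The groups did not overlap, with a change of 1.65 ± 0.26 (log2, SE; edgeR adjusted p = 3.79e-05). Tbx4 passed the filter mainly through the hypothyroid group, so its call is no support. Tbx2, which was lower, lies 44 kb away on chromosome 11, and no contrast between the neighbours is drawn. Tbx6 had 0.918, 1.51, 0.903, 0.958 and 0.776 CPM in euthyroid and 2.67, 4.28, 2.56, 2.03 and 2.403 CPM in hypothyroid libraries. Library 2 was the highest in both groups, and the change was 1.45 ± 0.24 (log2, SE; edgeR adjusted p = 6.11e-05). Tbx15, a skeletal regulator, did not pass, at 1.94 ± 0.615 and 2.29 ± 0.673 CPM (SD, n = 5 each; edgeR adjusted p = 0.406). Tbx22, a gene of the palate, was below the filter, with 1 count in the euthyroid group and 6, 6, 4, 5 and 8 counts in the hypothyroid libraries. Its ratio of 24.8 had an exact 95% interval of 4.11 to 1012. Tbx20 had 1 and 12 counts, Tbx21 had 25 and 17, Tbx19 had 4 and 1, and Tbx10 had 0 and 2.

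All 7 MEIS and PBX genes were tested, and 5 were higher, none was lower and 2 did not pass. The share called, 71.4%, was close to the 71.8% of all genes. Their median change was 0.66 on the log2 scale. Meis1 had 7.13, 10.7, 7.96, 7.49 and 9.31 CPM in euthyroid and 16.2, 17.1, 15.5, 21.9 and 15.6 CPM in hypothyroid libraries. The groups lay well apart, with hypothyroid library 4 the highest, and the change was 1.02 ± 0.12 (log2, SE; edgeR adjusted p = 3.24e-06), or 0.92 without that library. Meis2 rose by 1.00 ± 0.15 (SE; edgeR adjusted p = 1.89e-05), with 4.53 ± 0.705 and 9.06 ± 1.73 CPM in the 2 groups (SD, n = 5 each), just under a 2-fold change. Pbx4 rose by 1.00 ± 0.18 (SE; edgeR adjusted p = 1.06e-04), from 1.47 ± 0.329 to 2.95 ± 0.387 CPM (SD, n = 5 each). Pbx2 and Pbx3 rose by 0.48 and 0.66. Meis3, at -0.16, was the member just outside the threshold (edgeR adjusted p = 0.0532), and it passed without euthyroid library 1 or 2 or hypothyroid library 3 (adjusted p = 0.0478, 0.0279 and 0.0368). The same-strand gene Gpsm3 overlaps Pbx2, and same-strand genes also overlap Meis1, Prrx1 and Eya4 among others, so these values are uncertain.

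**Figure D4:**
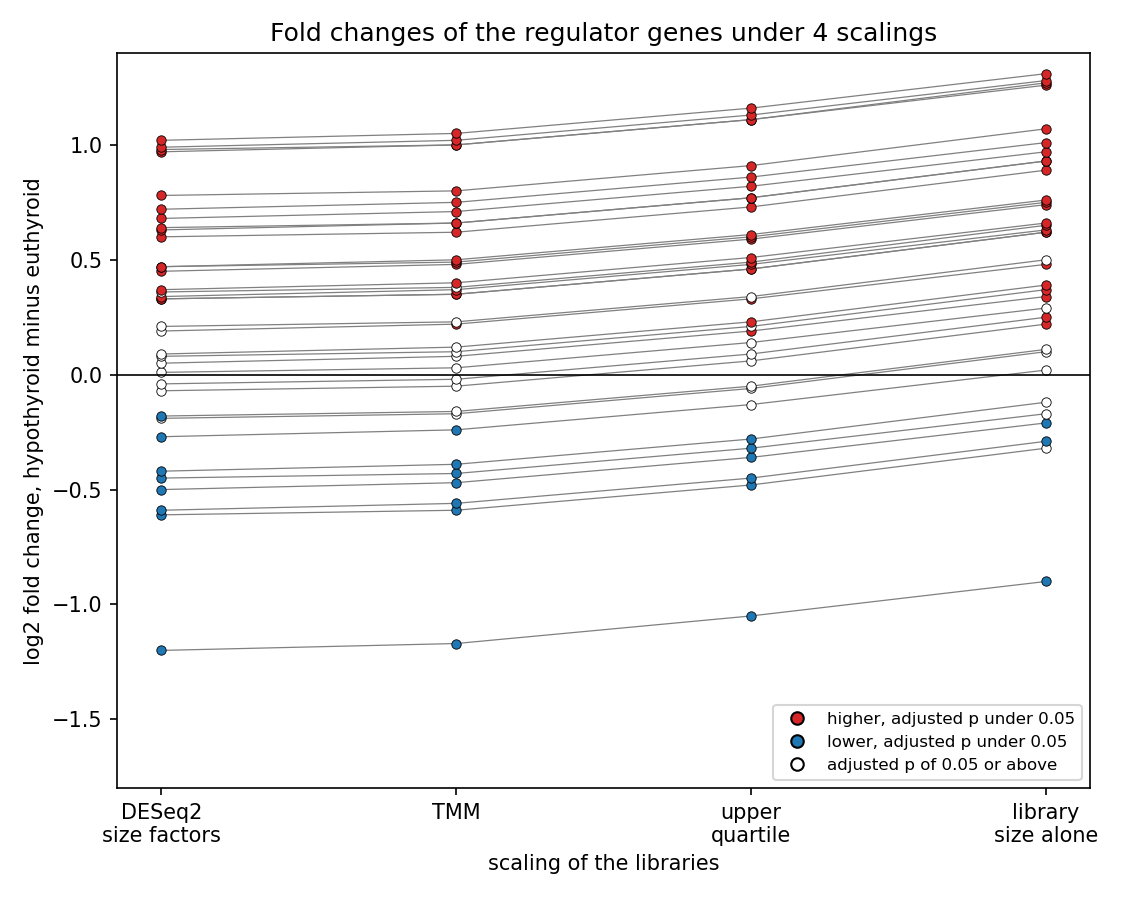
Log2 fold changes (y axis, hypothyroid minus euthyroid) of 35 tested genes under 4 scalings of the libraries (x axis), 1 line a gene, red or blue where the adjusted p was under 0.05 and white where it was not. The 6 genes with a change above 1.3 in size are not drawn, and all lines climb towards library sizes alone, where Irx5 goes from -0.02 to 0.25.

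Both tested PAX genes were higher, where 37.7% of all genes were, and the other 4 of the 6 were below the filter. Pax2, an early gene of the otic vesicle, had 15.7, 14.1, 16.2, 16.8 and 17.1 CPM in euthyroid libraries. Its hypothyroid values were 18.1, 21.4, 20.2, 23.1 and 20.03 CPM, all above the euthyroid ones. The change was 0.37 ± 0.08 (log2, SE; edgeR adjusted p = 6.17e-04). Pax3, a gene of the neural crest and of melanocyte precursors, had 2.38, 2.37, 2.65, 2.37 and 3.77 CPM in euthyroid and 3.98, 5.94, 3.95, 6.14 and 3.58 CPM in hypothyroid libraries. Euthyroid library 5 was above the lowest hypothyroid value, and the change was 0.80 ± 0.19 (log2, SE; edgeR adjusted p = 0.00157). Of 7 melanocyte markers 6 were higher, where 37.7% of all genes were, and Kcnj10 was lower. The sum over all 7 was 560 to 774 CPM in euthyroid and 892 to 1694 CPM in hypothyroid libraries. The part of melanocytes in the change of Pax3 was not tested. Pax8 was not analysed here.

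Of the OTX, PRRX, EMX and HMX genes tested, 5 were higher and 1 was lower. All 6 tested thus passed, where 71.8% of all genes did, though Otx2 passed the filter mainly through the hypothyroid group. Otx1 and Otx2 act in the head and in the shaping of the ear. Otx1 had 3.94, 6.36, 3.95, 5.63 and 5.99 CPM in euthyroid and 7.95, 9.03, 8.34, 8.31 and 8.67 CPM in hypothyroid libraries, with no overlap. The change was 0.71 ± 0.14 (log2, SE; edgeR adjusted p = 2.39e-04). Otx2 was near its limit of detection, at 0, 0.485, 0.903, 0.732 and 0.166 CPM in euthyroid and 1.45, 2.04, 0.675, 1.25 and 1.04 CPM in hypothyroid libraries. Hypothyroid library 3 lay below 2 euthyroid libraries, and the change was 1.50 ± 0.51 (log2, SE; edgeR adjusted p = 0.0188). The antisense gene Otx2os1 overlaps it.

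Prrx1, a gene of mesenchyme and of connective tissue, had 56.7, 56.4, 55.6, 53.7 and 57.2 CPM in euthyroid and 82.5, 87.3, 95.04, 81.0 and 84.9 CPM in hypothyroid libraries. The euthyroid values were within a few CPM of each other, all hypothyroid values were higher, and the change was 0.62 ± 0.05 (log2, SE; edgeR adjusted p = 2.3e-08). Its relative Prrx2 was just inside the threshold, at 13.1 ± 1.48 and 15.3 ± 1.39 CPM (SD, n = 5 each; change 0.22, edgeR adjusted p = 0.0435). Leaving out any one of euthyroid libraries 1 to 4 or hypothyroid libraries 1, 3 and 4 ended that call (adjusted p = 0.0564 to 0.136). Hmx3, needed for the vestibular part of the ear, had 10.8, 15.5, 14.2, 15.8 and 17.1 CPM in euthyroid libraries. It had 17.7, 24.9, 18.9, 35.5 and 18.99 CPM in hypothyroid libraries, the highest value in the library that was also highest in marginal cell markers. The change was 0.66 ± 0.20 (log2, SE; edgeR adjusted p = 0.0135) with that library and 0.46 without it (adjusted p = 0.00663). Emx2, which sets the orientation of hair cells, fell by 0.43 (log2; edgeR adjusted p = 0.00316). Its levels were 13.8 ± 1.92 CPM in euthyroid and 10.2 ± 1.38 CPM in hypothyroid libraries (SD, n = 5 each), with overlapping groups. With library sizes alone its change was -0.17 and did not pass (adjusted p = 0.201). Pitx3, Emx1 and Hmx1 had at most 1 count in either group, and Pitx1 was not analysed here.

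Of the 3 tested GATA genes, Gata2 was higher, and Gata3 and Gata6 were lower, so all passed, where 71.8% of all genes did. Gata2, which acts in the vestibular canals and in blood, had 94.7, 80.8, 74.9, 80.5 and 94.2 CPM in euthyroid and 129, 131, 118, 100 and 122 CPM in hypothyroid libraries. The groups did not overlap, with a change of 0.50 ± 0.08 (log2, SE; edgeR adjusted p = 7.16e-05). Gata3, whose loss of a copy causes human deafness, had 96.9, 116, 77.5, 100 and 85.8 CPM in euthyroid and 81.4, 90.9, 70.5, 75.8 and 84.8 CPM in hypothyroid libraries. The groups overlapped widely, and Gata3 was the lower member just inside the threshold (-0.24 ± 0.10, SE; edgeR adjusted p = 0.0475). With library sizes alone its change was 0.02 (adjusted p = 0.861), and leaving out any one of euthyroid libraries 1, 2 and 4 or hypothyroid libraries 1, 3, 4 and 5 ended the call (adjusted p = 0.0585 to 0.108). Gata6 was low, at 2.12 and 1.42 CPM, with overlapping groups and a change of -0.59 (edgeR adjusted p = 0.0163), which with library sizes alone was -0.32 and did not pass (adjusted p = 0.157). Gata1, the erythroid member, had 24 and 4 counts, and Gata5 had 9 and 22. The sum of 5 erythroid markers was 11.7 to 28.1 CPM in euthyroid and 11.2 to 15.6 CPM in hypothyroid libraries, and its part in the counts of Gata1 was not tested.

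**Figure D5:**
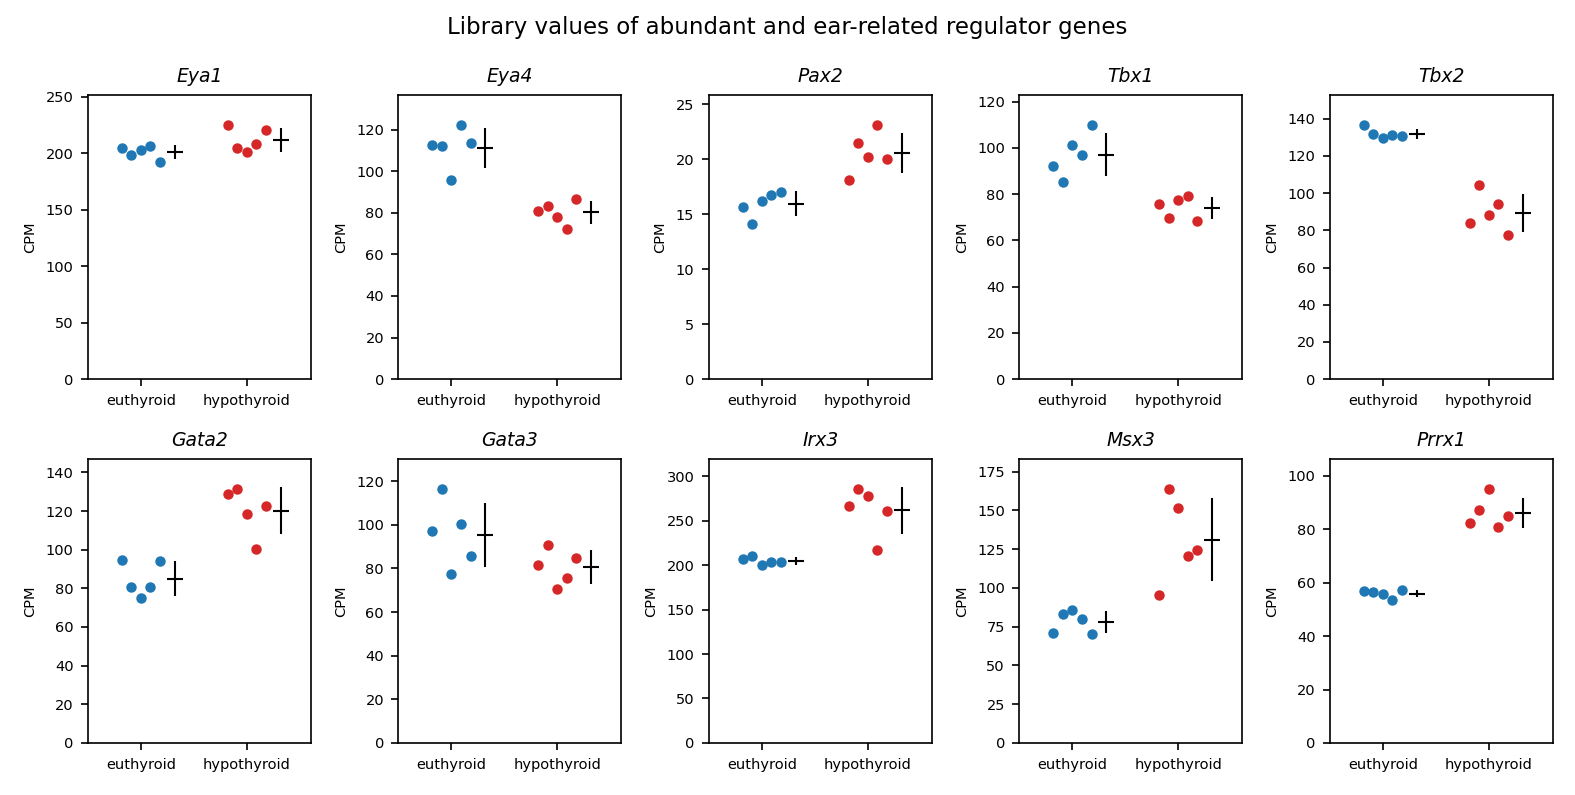
CPM (y axis, from 0) of 10 abundant or ear-related genes in 5 euthyroid (blue) and 5 hypothyroid (red) libraries, with the mean and SD beside the points. Eya4, Tbx1 and Tbx2 lie lower and Pax2, Gata2, Irx3, Msx3 and Prrx1 higher in the hypothyroid libraries without overlap, while the groups of Eya1 and Gata3 overlap.

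Lhx6 was the only one of the 8 LHX genes to pass the filter. This LIM homeobox gene of forebrain interneurons and of the jaw, on chr2:36081950-36105992, was low, with 0.216, 0.108, 0.282, 0.113 and 0.166 CPM in euthyroid libraries. It had 1.17, 1.24, 0.964, 1.06 and 0.990 CPM in hypothyroid libraries. The groups did not overlap, and the log2 change of 2.58 ± 0.28 (SE; edgeR adjusted p = 8.56e-07) was the largest rise of the 43. Members such as Lhx6, Tbx4 and Dlx3, which passed the filter mainly through the group where they were high, had to differ, so their calls are no support. Otx2 also passed the filter mainly through the hypothyroid group. Lhx3, which is expressed in hair cells, had 8, 6, 2, 7 and 4 counts in euthyroid libraries. It had 1 count in 1 hypothyroid library and 0 in the other 4, a ratio of 0.0316 with an exact 95% interval of 7.73e-04 to 0.192. Of 7 tested hair cell markers 5 were lower and Myo7a was higher. The sum over all 8 markers was 42.9 to 98.5 CPM in euthyroid and 32.2 to 41.8 CPM in hypothyroid libraries. Most of the hypothyroid sum was Myo7a, at 26.61 to 34.76 CPM there and 10.95 to 14.14 CPM in euthyroid libraries. Ocm had 14.95 to 47.21 CPM in euthyroid and at most 0.0942 CPM in hypothyroid libraries, and Slc26a5 was at 0 in all hypothyroid libraries. The part of hair cells in the counts of Lhx3 was not tested. Lhx2 had 1 and 28 counts, of which 21 were in hypothyroid library 3.

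Of the 29 members below the filter, 14 had 10 or fewer counts over all 10 libraries. Pax5, a B cell regulator, had 8, 2, 18, 4 and 10 counts in euthyroid and 0, 3, 0, 2 and 4 counts in hypothyroid libraries, so the groups overlapped. The sum of 6 lymphocyte markers was 2.59 to 7.17 CPM in euthyroid and 1.70 to 2.76 CPM in hypothyroid libraries, and its part was not tested. Pax6 had 22 and 10 counts, Pax9 had 37 and 43, and Lhx9 had 4 and 8. Only Dlx6, Lhx3 and Tbx22 of the 29 had groups that did not overlap. The same share was not computed for all genes below the filter.

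Promoter sequence was matched for 27 of the 43 tested members, as the 250 bases before a RefSeq start on GRCm38.p6. Both strands were searched for short motifs of the families described here. The homeodomain core TAATTA was in 4 of the 27, Msx2, Otx2, Prrx1 and Tbx6, or 14.8%, and in 5.65% of all 27025 genes with such a window. The MEIS site TGACAG was in Six2 and Six5, or 7.41%, against 18% of all genes. The motif AGGTCA, which the thyroid hormone receptor binds, was in none of the 27 and in 15.8% of all genes. A direct repeat of AGGTCA was in none of the 27 and in 0.0148% of all genes. The shorter homeodomain core ATTA was in 12 of the 27, or 44.4%, against 58.5% of all genes. The longer core was thus more frequent in the members and the shorter core less frequent. The GATA site AGATAA was in 7.41% against 11.4%, and the T-box site AGGTGTGA in none against 1.3%. The SIX-family site TCAGGTTTC was in 3.7% against 0.459%, and the PBX and HOX site in 3.7% against 3.31%. The 27 do not hold Dlx3, Dlx5 or Eya2. A match is a run of letters and not a shown site, and a missing match says only that these letters are not in the window. The windows of Otx2, Tbx6 and Six5 are shown because these are the members with a rise of at least 2-fold that hold either of the first 2 motifs. Each is 5′ to 3′ on the gene's strand with the motif in capitals, which begins 141, 231 and 105 bases before the start in turn.
Otx2, chr14:48667645-48667894, minus strand: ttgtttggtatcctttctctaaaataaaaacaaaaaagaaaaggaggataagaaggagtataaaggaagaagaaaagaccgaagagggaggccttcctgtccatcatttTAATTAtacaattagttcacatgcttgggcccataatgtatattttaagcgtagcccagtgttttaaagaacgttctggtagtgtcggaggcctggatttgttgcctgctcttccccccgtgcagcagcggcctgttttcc
Tbx6, chr7:126781233-126781482, plus strand: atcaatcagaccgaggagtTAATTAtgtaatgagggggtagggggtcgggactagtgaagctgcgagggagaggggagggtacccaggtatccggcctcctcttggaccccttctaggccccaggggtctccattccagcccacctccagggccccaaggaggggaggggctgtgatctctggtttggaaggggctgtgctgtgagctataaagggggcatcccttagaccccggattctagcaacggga
Six5, chr7:19094294-19094543, plus strand: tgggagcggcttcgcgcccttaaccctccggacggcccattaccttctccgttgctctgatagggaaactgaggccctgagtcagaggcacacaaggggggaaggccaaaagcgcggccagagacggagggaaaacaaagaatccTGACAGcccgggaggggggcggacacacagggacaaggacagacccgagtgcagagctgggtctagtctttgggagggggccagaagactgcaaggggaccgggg

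The partners of these factors were followed in a list of 23 cofactors, all of which were tested. Of these 14 were higher, 8 lower and 1 did not pass, with a median log2 fold change of 0.32. This was 95.7% called, 60.9% higher and 34.8% lower, against 71.8%, 37.7% and 34.1% of all genes. The list was chosen with earlier results of these data known, so the excess is no support. Those with the smallest adjusted p were Tgif2 and Tgif1, which repress genes at sites shared with MEIS proteins, Ldb2, a binding partner of LIM homeobox factors, Lmo3, a LIM-only protein, and Dach1, a partner of SIX-family and EYA proteins. Tgif2 rose from 23.0 ± 1.56 to 57.6 ± 2.58 CPM (log2 change 1.32, edgeR adjusted p = 2.7e-11), and Tgif1 from 20.4 ± 3.86 to 64.7 ± 2.04 CPM (1.66, edgeR adjusted p = 2.93e-09). Ldb2 rose from 32.4 ± 3.21 to 79.1 ± 5.95 CPM (1.28, edgeR adjusted p = 3.41e-10). Dach1 rose from 25.9 ± 1.47 to 48.0 ± 3.86 CPM (0.89, edgeR adjusted p = 8.32e-09). Lmo3 fell from 30.2 ± 3.19 to 8.51 ± 1.79 CPM (-1.83, edgeR adjusted p = 5.01e-09). Errors are SD with n = 5 in each group, and in none of the 5 genes did the groups overlap.

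Of 21 other regulators of the ear, 13 were tested, of which 3 were higher, 4 lower and 6 did not pass (53.8% called, against 71.8% of all genes), with a median of 0.11. This list too was chosen with earlier results of these data known. Epas1, a hypoxia-inducible factor, fell from 434 ± 34.9 to 192 ± 6.82 CPM (-1.17, edgeR adjusted p = 6.5e-11). Mitf, the melanocyte regulator, fell from 106 ± 22.4 to 49.3 ± 6.26 CPM (-1.11, edgeR adjusted p = 6.69e-05). Of the 7 melanocyte markers 6 were higher, Pmel, Tyr and Dct among them. Kcnj10 was lower, with 157 to 195 CPM in euthyroid and 23.7 to 38.9 CPM in hypothyroid libraries. Lmx1a, which sets the borders of sensory patches, fell from 121 ± 11.5 to 99.4 ± 9.09 CPM (-0.28, edgeR adjusted p = 0.00259), and Isl1, a prosensory gene, from 14.4 ± 1.48 to 11.8 ± 1.21 CPM (-0.28, edgeR adjusted p = 0.0152). Both changes were -0.02 with library sizes alone and did not pass. Prox1, a gene of supporting cells and lymphatic vessels, rose from 1.90 ± 0.323 to 2.74 ± 0.614 CPM (0.53, edgeR adjusted p = 0.0204), and leaving out euthyroid library 2 or 3 or hypothyroid library 5 ended that call (adjusted p = 0.0516, 0.0542 and 0.0629). Errors are SD with n = 5 in each group. Without euthyroid library 3, 1 gene of this list was higher. Whichever hypothyroid library was left out, 7 were lower. The filter was rerun in these fits and let in more genes, 14956 to 14974 against 14862. The count of 7 thus mixes the filter with the loss of a library.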

How the data were processed

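Expected counts and TPM per gene and library were deposited by the authors. The submitters' processing notes list RSEM 1.2.12, HISAT2 2.0.4 and Bowtie2 2.2.5, with build GRCm38.p6, but not their roles. RSEM's expected counts divide reads among genes, so near-identical genes may share reads. TPM, per the file headers, adjusts for gene length and library total. Of the table's other columns, 28 were not used.

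Expected counts were rounded and filtered with filterByExpr of edgeR 4.0.16 (minimum count 10), scaled with TMM factors (means 0.912 in euthyroid and 1.10 in hypothyroid libraries), and tested over all genes with edgeR's quasi-likelihood test (robust, group as the only term, two-sided, Benjamini-Hochberg adjusted p under 0.05). SE is the size of the log2 fold change over the root of the F statistic. The steps were tested on simulated data in which few genes changed, evenly up and down, so the choice of scaling was not tested. Pairs of libraries within a group differed by a mean chi-square per gene of 5.29 to 15.6, above sampling noise, so none was treated as a duplicate. Replicate numbers paired no libraries, since the correlations of same-numbered deviations were 0.146, -0.084, 0.008, 0.040 and 0.084. The members and lists were chosen with earlier results of these data known. Named genes were members with a 2-fold change, the most abundant of each family, ear and limb genes, those next to the threshold, and the 5 smallest p of 2 further lists. A few others are named to complete the counts. The values of 2 tested members are not reported here, although the counts and medians include them. Alternatives were other scalings, filters, DESeq2 1.42.0, limma 3.58.1 on log2 TPM (pseudocount 0.1 or 1), a replicate block, a Y-linked covariate and leaving out each library. R 4.3.3, Python 3.11.15 and matplotlib 3.10.9 were used. Promoters are from RefSeq.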

Additional observations from a re-analysis of the deposited data

Results flagged for a closer look

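In 6 of 86 groups of 5 libraries, 1 library lay far from the others by Dixon's criterion (the gap to the nearest value above 0.710 of the range), where chance gives about 1 in 20, or 4.3. Tbx6 was highest in library 2 of both groups, at 1.508 CPM in euthyroid (next 0.958) and 4.279 CPM in hypothyroid libraries (next 2.67), and its change was 1.63 without the former and 1.25 without the latter. Meis1 was highest in hypothyroid library 4 at 21.92 CPM (next 17.1), and Pbx3 was lowest in the same library at 46.76 CPM (next 55.7). That library also had the highest sum of marginal cell markers, 563 CPM, whose part was not tested. Pax3 was highest in euthyroid library 5 at 3.77 CPM (next 2.65), and its change was 0.94 without it. Irx6 was highest in euthyroid library 3 at 2.878 CPM (next 2.21).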

How the results depend on the processing

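Of 41 tested genes, 27 kept their direction and their side of the threshold under every alternative run, and 14 did not, 7 of them only through library sizes, upper quartile factors or TPM. Library sizes alone gave 5 lower members, a median of 0.62, 8650 higher and 2928 lower genes in all, and 7 higher and 2 lower other otic regulators. With it the changes of Eya3 (0.22, adjusted p = 0.0314), Gata3 (0.02) and Irx5 (0.25) turned positive, as did those of Irx6 (0.10) and Meis3 (0.11), which did not pass. Upper quartile factors gave a median of 0.46, 5 higher otic regulators, and changes of 0.06 for Eya3 and 0.09 for Irx5. The stricter filter left out Dlx3, Gata6, Lhx6, Msx1, Msx2, Otx2 and Tbx4. With no filter, all 72 members entered, 8 were lower by at least 2-fold, the median was 0.09, and 8 otic regulators were lower. On TPM with pseudocount 0.1, 3238 genes were lower, 7 otic regulators higher, the median was 0.47, and changes were positive for Irx5 (0.20), Eya3 (0.18), Irx6 (0.05) and Meis3 (0.03). With pseudocount 1, 3241 genes were lower, 7 otic regulators higher, and these changes were 0.20, 0.17, 0.03 and 0.03. That pseudocount, large against low levels, also shrank Dlx3 to -1.42, Lhx6 to 0.75, Otx2 to 0.82 and Tbx4 to 0.71, all still called. DESeq2 called 21 members higher and 10 lower, as did the fit with a replicate block, although replicate numbers paired no libraries (only library 1 correlated best with its own number). Leaving out each library gave 21 to 23 higher and 8 to 10 lower members, 5 to 8 and 3 to 4 of at least 2-fold, a median of 0.28 to 0.35, and 1 to 4 higher and 4 to 7 lower otic regulators. Over these fits the changes of Eya3 (-0.10 to 0), Irx5 (-0.05 to 0.05) and Msx1 (-0.08 to 0.14) crossed 0 and none passed. For Gata3, Prrx2, Meis3 and Msx2 the call turned on the choice of library, and each call also changed under other settings. Below about 1 CPM, counting noise limits what can be seen.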
